A study of Mus musculus with 24 samples.

Results

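The enzymes from mevalonate synthesis to lanosterol carry acetyl-CoA units through the first stretch of cholesterol synthesis. Hmgcs1, Mvk, Pmvk, Mvd, Idi1, Fdps, Fdft1, Sqle and Lss were taken by name from the pathway, 9 genes of 54446 in the expression table, and all 9 were among the 15216 genes with a mean of at least 0.5 FPKM that were tested. FPKM counts a gene's fragments per kilobase of its length, scaled to the total of the library. Each of the 9 is measured well above that minimum, so no enzyme was lost to the filter on low values.

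Polyadenylated RNA from the corpus callosum of mice, the large white matter tract between the hemispheres, gave 24 libraries. They fall into cuprizone BTKi (n = 8), cuprizone vehicle (n = 8), naive BTKi (n = 4) and naive vehicle (n = 4). Cuprizone is a copper chelator that kills oligodendrocytes and strips myelin, BTKi stands for an inhibitor of Bruton's tyrosine kinase that the design text places after disease induction, and naive is the word of the labels for the groups without cuprizone. The sources used here do not give strain, genotype, age, compound, dose or duration. They also do not say that each library is a separate animal, so p-values refer to the spread among these samples, part of which may be technical.

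Cholesterol is a main lipid of myelin, and because blood cholesterol hardly enters the brain, brain cells make their own. Oligodendrocytes have the greatest demand while they wrap axons, and astrocytes and neurons also run the pathway. The early enzymes make farnesyl pyrophosphate, which also feeds protein prenylation, dolichol and ubiquinone. The later enzymes join farnesyl units into squalene and close it into lanosterol, the first sterol. When sterols in the endoplasmic reticulum run low, the factor SREBP-2 is released and raises transcription of the pathway's genes.

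In both comparisons of cuprizone with naive tissue, 7 of the 9 enzymes fell, and the same 7 fell in each. They were Hmgcs1, Mvk, Mvd, Idi1, Fdps, Fdft1 and Sqle. Among all genes tested, limma called 1.77% lower under BTKi and 4.82% with vehicle. The calls of Mvk in both comparisons and of Mvd with vehicle ended when certain single libraries were left out. Pmvk and Lss did not pass the test in either comparison. The falls that passed lay between -0.60 and -0.21 on the log2 scale. BTKi against vehicle gave no call among the 9 in either state, where 0.177% of all genes were called in cuprizone and 0.217% in naive tissue.

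Levels differed widely between the enzymes. FPKM is scaled to gene length, but the sources used here do not give the length taken for each gene, and the order depends on it. In GENCODE M21 all exons of Lss together cover 10787 bases, against 1713 for Pmvk to 5546 for Sqle in the other enzymes. The order below is therefore one of FPKM and may not be that of RNA molecules. In naive vehicle libraries the order of the mean FPKM was Hmgcs1 at 75.6, Fdft1 at 28.9, Fdps at 27.8, Sqle at 19.8, Idi1 at 18.9, Pmvk at 17, Mvd at 9.42, Mvk at 9.13 and Lss at 6.79. The libraries of Fdft1 and Fdps overlapped there, as did those of Sqle and Idi1, of Idi1 and Pmvk, and of Mvd and Mvk. In both cuprizone groups Pmvk stood above Sqle and Idi1, with a mean of 16.2 FPKM in cuprizone BTKi and 17.3 FPKM in cuprizone vehicle. The spread between libraries of 1 group was small, with coefficients of variation from 2.11% for Lss in naive vehicle to 11.4% for Idi1 in cuprizone BTKi.

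**Figure D1:**
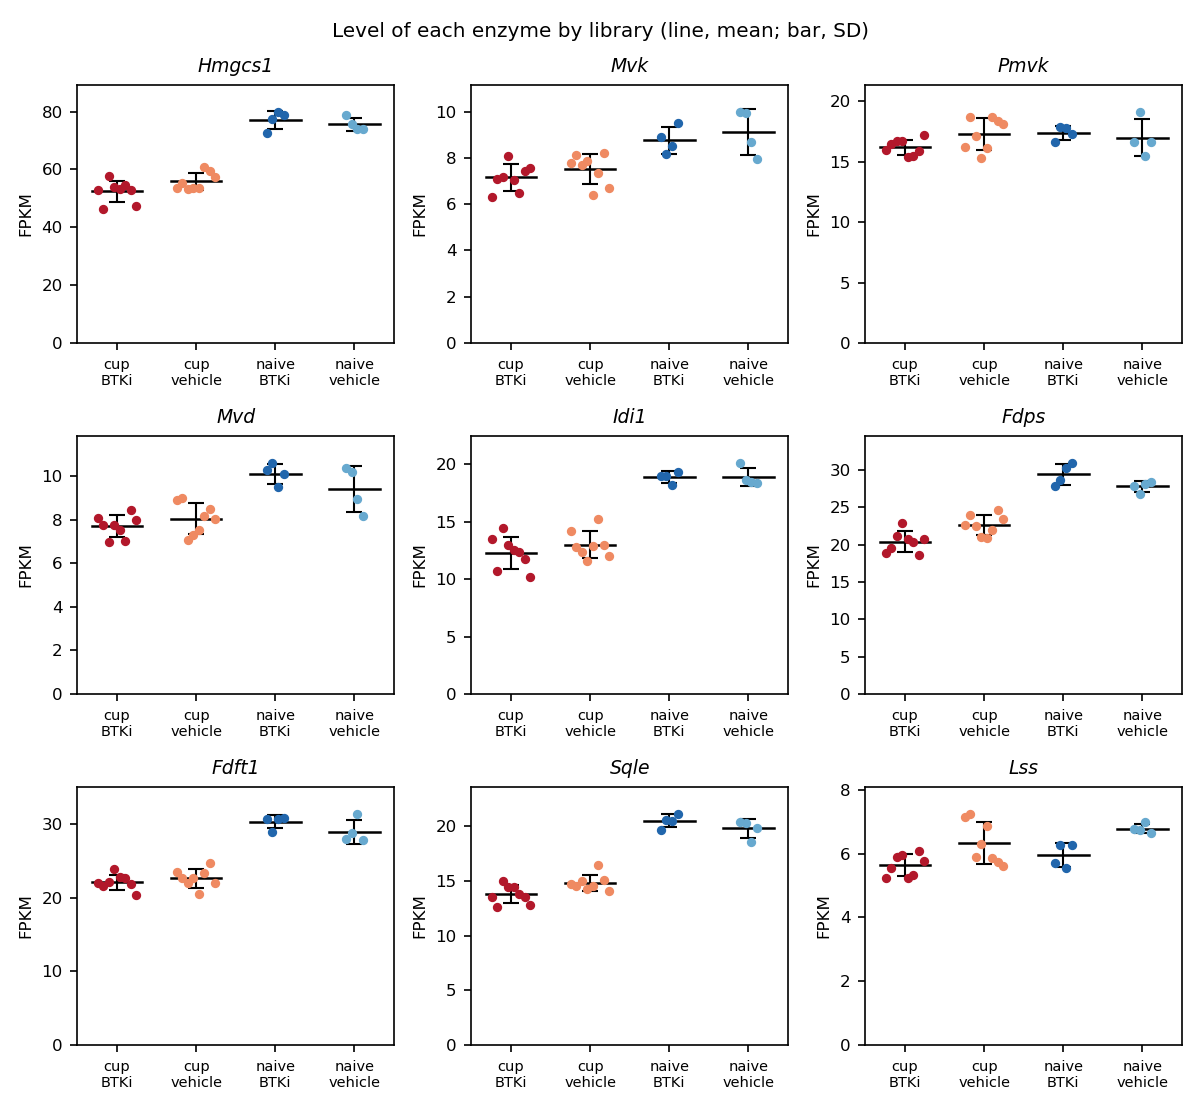
FPKM (y axis, from 0) of each enzyme in pathway order, 1 point a library, with the group mean (line) and SD (bar). Groups run from left to right as cuprizone (cup) BTKi, cuprizone vehicle, naive BTKi and naive vehicle. For Hmgcs1, Idi1, Fdps, Fdft1 and Sqle all 16 cuprizone points lie below all 8 naive points, while the points of Pmvk and Lss overlap.

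Promoter sequence is shown for 3 enzymes that fell and for Lss, which was not called, so that the letters read by sterol-responsive factors can be seen beside the levels. The RefSeq promoter table on GRCm38.p6 held 6 of the 9 enzymes, and Fdps, Fdft1 and Sqle were not among them. The 250 bases before the RefSeq start are given 5′ to 3′ on the strand of the gene. Capitals mark CCAAT, the box bound by NF-Y, on either strand (ATTGG on the other strand), and the sterol regulatory element letters TCACNCCAC.
Hmgcs1, chr13:119690101-119690350, plus strand: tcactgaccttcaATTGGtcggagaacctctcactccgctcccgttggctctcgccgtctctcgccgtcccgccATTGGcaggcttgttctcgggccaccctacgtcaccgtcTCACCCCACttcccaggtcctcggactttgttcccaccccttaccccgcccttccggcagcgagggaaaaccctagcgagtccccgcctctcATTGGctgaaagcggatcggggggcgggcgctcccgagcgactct
Mvk, chr5:114444019-114444268, plus strand: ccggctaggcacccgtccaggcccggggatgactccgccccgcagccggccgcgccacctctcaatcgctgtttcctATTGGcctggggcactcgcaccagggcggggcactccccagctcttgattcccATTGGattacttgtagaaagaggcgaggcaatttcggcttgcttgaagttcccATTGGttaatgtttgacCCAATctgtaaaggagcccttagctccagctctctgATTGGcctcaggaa
Mvd, chr8:122443423-122443672, minus strand: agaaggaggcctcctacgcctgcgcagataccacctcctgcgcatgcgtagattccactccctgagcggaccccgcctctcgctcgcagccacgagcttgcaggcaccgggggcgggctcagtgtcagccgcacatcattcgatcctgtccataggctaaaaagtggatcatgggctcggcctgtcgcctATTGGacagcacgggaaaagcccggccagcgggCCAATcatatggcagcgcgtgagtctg
Lss, chr10:76531355-76531604, plus strand: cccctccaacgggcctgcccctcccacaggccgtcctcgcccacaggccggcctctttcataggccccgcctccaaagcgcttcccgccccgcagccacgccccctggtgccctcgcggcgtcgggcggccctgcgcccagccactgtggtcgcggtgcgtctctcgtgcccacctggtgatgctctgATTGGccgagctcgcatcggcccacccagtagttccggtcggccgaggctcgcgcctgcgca
Hmgcs1 held 3 copies of CCAAT, Mvk 5, Mvd 2 and Lss 1 in this window. Idi1, whose window is not printed, held 2 copies, and Pmvk 1 at the first of its RefSeq starts. The end of the Lss window lies within the span that GENCODE M21 gives the gene. Of 32851 promoters of the same length, 33.8% held CCAAT on either strand. TCACNCCAC was found once, in Hmgcs1, from 137 to 129 bases before the start, against 1.05% of all promoters. The Sp1 box GGGCGG, searched on both strands and not capitalised, was found in Hmgcs1, Mvk, Mvd, Idi1 and Lss and not in Pmvk, against 32.7% of all promoters. The letters CANNTG, the E-box, were in the windows of Hmgcs1, Pmvk, Mvd, Idi1 and Lss and not in that of Mvk, against 66.2% of all promoters. In the printed windows 1 match overlapped CCAAT, that of CANNTG in Hmgcs1. These matches describe letters, not bound sites.

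The comparison of cuprizone BTKi with naive BTKi and that of cuprizone vehicle with naive vehicle ask what cuprizone changed with and without the inhibitor, and they share no library. Under BTKi 7 of 9 enzymes were lower and none was higher at a limma adjusted p under 0.05, against 1.77% of all genes tested called lower and 6.11% called higher. With vehicle 7 of 9 were lower and none was higher, against 4.82% of all genes called lower and 10.2% called higher. Over all genes 929 were higher and 269 lower under BTKi, but 772 and 406 after median ratio scaling and 724 and 395 after quantile normalization. With vehicle 1555 were higher and 733 lower, but 1229 and 978, and 1205 and 1072, after those scalings. Under each of them 7 enzymes were called lower in both comparisons. The median log2 difference of the 9 was -0.44 under BTKi, where the median of all genes was 0.021, and -0.29 with vehicle, where it was 0.029. Called lower in both comparisons were 205 of all genes, or 1.35%. Leaving out 1 library at a time left 6 or 7 enzymes called under BTKi and 5 to 7 with vehicle. The lowest count with vehicle came without naive vehicle 1 or naive vehicle 2, when Mvk and Mvd were not called.

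**Figure D2:**
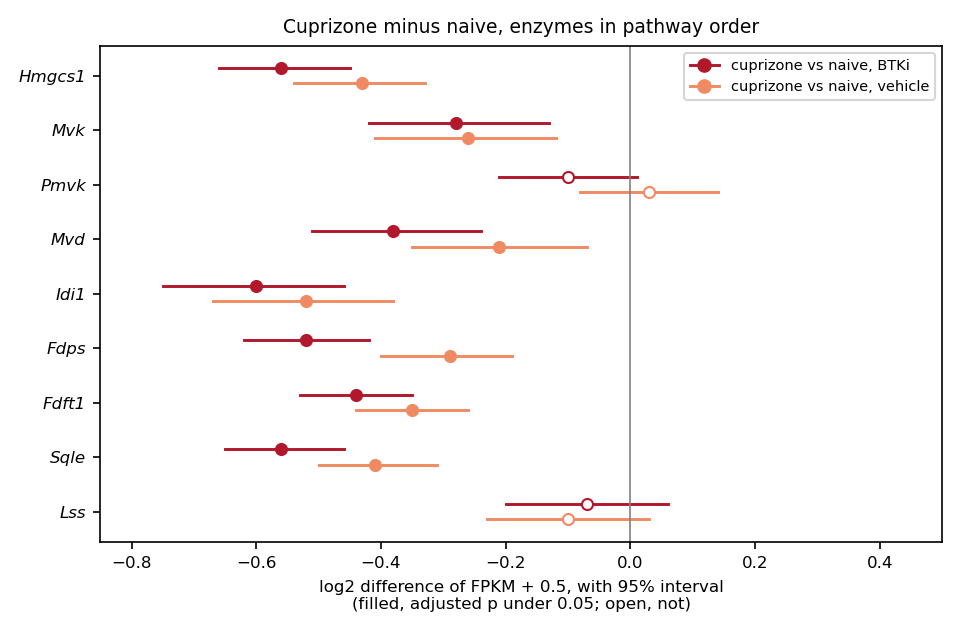
Log2 difference of FPKM + 0.5, cuprizone minus naive (x axis), with 95% intervals, for the 9 enzymes in pathway order, under BTKi (dark) and with vehicle (light). Filled points passed an adjusted p of 0.05 and open points did not. Idi1 lies farthest to the left in both comparisons, at -0.60 and -0.52, and the intervals of Pmvk and Lss include 0.

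Hmgcs1 encodes the cytosolic synthase that joins acetyl-CoA to acetoacetyl-CoA and opens the pathway. It lay between 46.3 and 57.8 FPKM (median 53) in cuprizone BTKi libraries, against 72.6, 77.3, 79.8 and 78.9 FPKM in naive BTKi libraries. With vehicle it lay between 53.3 and 61 FPKM (median 54.4) in cuprizone libraries, against 78.7, 75.6, 74.1 and 74.1 FPKM in naive ones. Every cuprizone library was below every naive library in both comparisons. The log2 difference was -0.56 (SE 0.05, limma adjusted p = 8.7e-08) under BTKi and -0.43 (SE 0.05, adjusted p = 8.43e-07) with vehicle. In GENCODE M21 on GRCm38, the annotation used for all gene positions here, protein-coding Hmgcs1 (ENSMUSG00000093930.2) spans 119690379 to 119708260 of chromosome 13, plus strand.

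Mevalonate is then phosphorylated and decarboxylated by the products of Mvk, Pmvk and Mvd. Mvk, mevalonate kinase, lay between 6.32 and 8.09 FPKM (median 7.12) in cuprizone BTKi libraries, against 8.88, 8.15, 8.49 and 9.52 FPKM in naive BTKi libraries. In cuprizone vehicle libraries it lay between 6.38 and 8.2 FPKM (median 7.73), against 9.97, 9.93, 8.68 and 7.94 FPKM in naive vehicle libraries. The groups did not overlap under BTKi and overlapped with vehicle, where naive vehicle 4 was the low library of its group. Mvk fell by 0.28 on the log2 scale under BTKi (SE 0.07, limma adjusted p = 0.0122) and by 0.26 with vehicle (SE 0.07, adjusted p = 0.011). Over 35 alternative settings its adjusted p ran from 0.00635 to 0.0817 under BTKi and from 0.00425 to 0.0677 with vehicle. Among the libraries left out in turn, the calls ended without naive BTKi 4 (0.0725), without naive vehicle 1 (0.0554) and without naive vehicle 2 (0.06).

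Pmvk, phosphomevalonate kinase, lay between 15.4 and 17.2 FPKM (median 16.3) in cuprizone BTKi libraries, against 16.6, 17.9, 17.8 and 17.3 FPKM in naive BTKi libraries. With vehicle it lay between 15.3 and 18.7 FPKM (median 17.6) in cuprizone libraries, against 16.6, 19.1, 15.5 and 16.6 FPKM in naive ones. The groups overlapped in both comparisons, and 3 of 16 cuprizone libraries lay below all 8 naive libraries. Its log2 difference was -0.10 under BTKi (95% interval -0.21 to 0.01, limma adjusted p = 0.343) and 0.03 with vehicle (-0.08 to 0.14, adjusted p = 0.761).

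Mvd, the decarboxylase that yields isopentenyl pyrophosphate, lay between 6.97 and 8.45 FPKM (median 7.76) in cuprizone BTKi libraries, against 10.3, 10.6, 9.51 and 10.1 FPKM in naive BTKi libraries. It lay between 7.06 and 9.01 FPKM (median 8.1) in cuprizone vehicle libraries, against 10.4, 10.2, 8.95 and 8.16 FPKM in naive vehicle libraries. The groups were apart under BTKi and overlapped with vehicle. Mvd fell by 0.38 on the log2 scale under BTKi (SE 0.07, limma adjusted p = 0.000462) and by 0.21 with vehicle (SE 0.07, adjusted p = 0.0336). The call with vehicle ended without naive vehicle 1 (adjusted p = 0.143), naive vehicle 2 (0.14), cuprizone vehicle 3 (0.0616), 4 (0.0592) or 5 (0.058), and its adjusted p ran from 0.0099 to 0.143 over 35 alternatives. Mvd lies within the span of Gm20388, a gene on the opposite strand whose mean was 4.77 FPKM in cuprizone BTKi, 5.2 FPKM in cuprizone vehicle, 6.28 FPKM in naive BTKi and 4.95 FPKM in naive vehicle.

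Mvk (ENSMUSG00000041939.14) spans 114444269 to 114460591 of chromosome 5, plus strand. Pmvk (ENSMUSG00000027952.16) spans 89454541 to 89469013 of chromosome 3, plus strand. Mvd (ENSMUSG00000006517.5) spans 122433601 to 122443422 of chromosome 8, minus strand. All 3 are protein-coding.

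Idi1, the isomerase that turns isopentenyl into dimethylallyl pyrophosphate, had the largest fall of the 9 in both comparisons. It lay between 10.2 and 14.5 FPKM (median 12.4) in cuprizone BTKi libraries, against 19, 19, 18.2 and 19.3 FPKM in naive BTKi libraries. In cuprizone vehicle libraries it lay between 11.6 and 15.2 FPKM (median 12.9), against 20.1, 18.6, 18.5 and 18.4 FPKM in naive vehicle libraries. The groups did not overlap. The log2 difference was -0.60 (SE 0.07, limma adjusted p = 4.26e-06) under BTKi, or 65.9% of the naive level on the FPKM + 0.5 scale, and -0.52 (SE 0.07, adjusted p = 9.7e-06) with vehicle, or 69.5%.

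Fdps, farnesyl pyrophosphate synthase, lay between 18.6 and 22.9 FPKM (median 20.6) in cuprizone BTKi libraries, against 27.8, 28.7, 30.2 and 30.9 FPKM in naive BTKi libraries. With vehicle it lay between 20.9 and 24.6 FPKM (median 22.6) in cuprizone libraries, against 27.9, 26.8, 28.1 and 28.4 FPKM in naive ones. No cuprizone library reached a naive one. Fdps fell by 0.52 under BTKi (SE 0.05, limma adjusted p = 2.41e-07) and by 0.29 with vehicle (SE 0.05, adjusted p = 0.000139). The difference between those falls, -0.23 (95% interval -0.37 to -0.08), did not pass (adjusted p = 0.279). Idi1 (ENSMUSG00000058258.14) spans 8885501 to 8892451 of chromosome 13, plus strand, and Fdps (ENSMUSG00000059743.12) 89093588 to 89101959 of chromosome 3, minus strand. Both are protein-coding.

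Fdft1, squalene synthase, commits farnesyl pyrophosphate to sterols. It lay between 20.4 and 23.9 FPKM (median 22.1) in cuprizone BTKi libraries, against 30.6, 28.9, 30.7 and 30.8 FPKM in naive BTKi libraries. In cuprizone vehicle libraries it lay between 20.5 and 24.7 FPKM (median 22.6), against 27.9, 28.7, 31.3 and 27.8 FPKM in naive vehicle libraries. The groups were apart in both comparisons. Its log2 difference was -0.44 under BTKi (SE 0.04, limma adjusted p = 3.76e-07) and -0.35 with vehicle (SE 0.04, adjusted p = 3.6e-06). Fdft1 (ENSMUSG00000021273.10), protein-coding, spans 63145150 to 63179578 of chromosome 14, minus strand. Its span shares 774 bases with Ctsb on the opposite strand, a lysosomal protease gene whose mean was 193 FPKM in cuprizone BTKi, 213 in cuprizone vehicle, 161 in naive BTKi and 155 in naive vehicle. The kit keeps the strand, but the sources used here do not say whether the counting used it, so fragments in the spans that Fdft1 and Mvd share with opposite genes may not have been told apart.

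Sqle, squalene epoxidase, puts the first oxygen on squalene. It lay between 12.6 and 15 FPKM (median 13.7) in cuprizone BTKi libraries, against 19.7, 20.6, 20.5 and 21.1 FPKM in naive BTKi libraries. With vehicle it lay between 14.1 and 16.5 FPKM (median 14.6) in cuprizone libraries, against 20.4, 20.3, 18.6 and 19.8 FPKM in naive ones. The groups did not overlap. Sqle fell by 0.56 on the log2 scale under BTKi (SE 0.05, limma adjusted p = 1.83e-08) and by 0.41 with vehicle (SE 0.05, adjusted p = 7.71e-07). Under BTKi it ranked 5 among all 15216 genes by p, with Hmgcs1 at rank 6, Fdps at 9 and Fdft1 at 13.

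Lss, lanosterol synthase, closes the ring. It lay between 5.25 and 6.09 FPKM (median 5.66) in cuprizone BTKi libraries, against 5.71, 6.28, 5.54 and 6.26 FPKM in naive BTKi libraries. In cuprizone vehicle libraries it lay between 5.62 and 7.24 FPKM (median 6.1), against 6.77, 6.76, 6.98 and 6.64 FPKM in naive vehicle libraries. Both pairs of groups overlapped. Its log2 difference was -0.07 under BTKi (95% interval -0.20 to 0.06, limma adjusted p = 0.606) and -0.10 with vehicle (-0.23 to 0.03, adjusted p = 0.332). Sqle (ENSMUSG00000022351.14) spans 59315077 to 59331192 of chromosome 15, plus strand, and Lss (ENSMUSG00000033105.12) 76531588 to 76557138 of chromosome 10, plus strand. Both are protein-coding.

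Taking the 16 cuprizone libraries against the 8 naive ones, 5 of the 9 enzymes had no overlap, all lower in cuprizone, against 0.874% of all genes. Hmgcs1 ran from 46.3 to 61 FPKM in cuprizone, against 72.6 to 79.8 FPKM in naive libraries. Idi1, Fdps, Fdft1 and Sqle were the other 4. For Mvk 13 of 16 cuprizone libraries lay below all naive ones, for Mvd 11, for Lss 4 and for Pmvk 3. Within the separate comparisons 7 enzymes did not overlap under BTKi, against 1.47% of all genes lower without overlap, and 5 with vehicle, against 2.85%.

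BTKi against vehicle in cuprizone tissue asks what the inhibitor changed after demyelination. None of the 9 enzymes was called by limma, where 0.177% of all genes were, and 4 had an unadjusted p under 0.05, as 8.79% of all genes had. All 9 estimates lay below 0, from -0.15 for Fdps and Lss to -0.03 for Fdft1, while 60.5% of all genes also lay below 0 and the median of all genes was -0.017. Fdps averaged 20.4 ± 1.39 FPKM in cuprizone BTKi and 22.6 ± 1.33 FPKM in cuprizone vehicle (SD, n = 8 each), a log2 difference of -0.15 (95% interval -0.23 to -0.06, limma adjusted p = 0.182). Its adjusted p ran from 0.07 to 0.379 over the alternatives. Lss averaged 5.64 ± 0.341 FPKM in cuprizone BTKi and 6.34 ± 0.655 FPKM in cuprizone vehicle (95% interval -0.26 to -0.05, adjusted p = 0.343). The libraries of the groups overlapped for every one of the 9, where 0.131% of all genes did not overlap. This comparison shares its libraries with those above, so its values add nothing independent to them.

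In naive tissue, BTKi against vehicle gave no call among the 9 by limma either, where 0.217% of all genes were called, and 1 enzyme had an unadjusted p under 0.05, as 12.6% of all genes had. That enzyme was Lss, at 5.95 ± 0.38 FPKM in naive BTKi and 6.79 ± 0.144 FPKM in naive vehicle (SD, n = 4 each), a log2 difference of -0.18 (95% interval -0.33 to -0.03, adjusted p = 0.299). Its naive BTKi libraries all lay below its naive vehicle libraries, as 4.93% of all genes did here. The remaining estimates lay between -0.05 for Mvk and 0.10 for Mvd.

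Whether the inhibitor acted differently in the 2 states, which is also whether cuprizone acted differently under it, was tested as a difference of differences. No enzyme was called by limma, against 0.125% of all genes, and 2 had an unadjusted p under 0.05, as 9.74% of all genes had. These were Fdps, described above, and Sqle, with a difference of -0.15 (95% interval -0.29 to -0.02, adjusted p = 0.467). The 95% intervals of the other 7 each included 0, and over the 9 enzymes the bounds reached from -0.37 to 0.21.

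**Figure D3:**
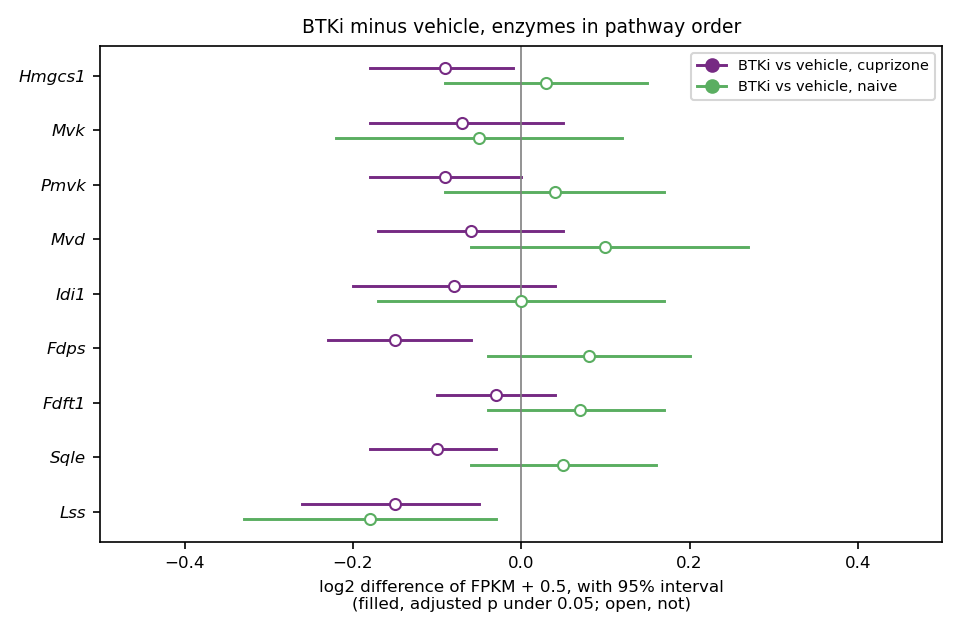
Log2 difference of FPKM + 0.5, BTKi minus vehicle (x axis), with 95% intervals, for the 9 enzymes in pathway order, in cuprizone (purple) and naive (green) tissue. No point passed an adjusted p of 0.05. The cuprizone estimates lie between -0.15 and -0.03 and the naive ones between -0.18 and 0.10.

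The rest of the pathway was read from lists chosen by function. Of all genes, 1.77% were called lower and 6.11% higher under BTKi, and 4.82% and 10.2% with vehicle. Of 10 enzymes from lanosterol to cholesterol, 6 fell under BTKi and 7 with vehicle, none rose, and the medians were -0.31 and -0.27. Msmo1, the sterol C4-methyl oxidase, averaged 28.9 ± 2.54 FPKM in cuprizone BTKi and 44.4 ± 2.64 FPKM in naive BTKi (SD, n = 8 and 4), a log2 difference of -0.61 (limma adjusted p = 3.37e-07). With vehicle it averaged 30 ± 2.14 FPKM in cuprizone and 44.7 ± 1.03 FPKM in naive libraries (-0.57, adjusted p = 3.09e-07). Cyp51, the lanosterol demethylase, fell by 0.45 under BTKi (limma adjusted p = 2.52e-07). With vehicle it averaged 13.1 FPKM in cuprizone and 15.9 FPKM in naive libraries. With vehicle Dhcr7, which makes cholesterol from its precursor, fell by 0.43 (limma adjusted p = 9.61e-06). Under BTKi Dhcr7 averaged 9.44 FPKM in cuprizone and 12 FPKM in naive libraries. Genes are named by the smallest p in a comparison, so a gene given for 1 comparison is not thereby unchanged in the other.

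Upstream, 2 of 6 measured genes of acetyl-CoA supply and related early steps fell in each comparison and none rose. Of all genes, 1.77% were called lower under BTKi and 4.82% with vehicle. Acss2, which makes acetyl-CoA from acetate, fell by 0.23 under BTKi and by 0.20 with vehicle. Acly, which makes it from citrate, fell by 0.21 with vehicle. Acat2, the cytosolic thiolase, fell by 0.24 under BTKi, a call that ended without naive BTKi 1 (limma adjusted p = 0.0759) or naive BTKi 4 (0.0576), with a range of 0.00378 to 0.0759 over the alternatives. Of 12 other users of farnesyl and geranylgeranyl pyrophosphate, none was called with vehicle and Dhdds, a subunit of the dolichol synthase, fell by 0.10 under BTKi. That call of Dhdds ended in 7 of 35 alternatives, among them on the TPM scale (0.0928) and with only the groups compared (0.0879), and without naive BTKi 2 (0.0683), 3 (0.144) or 4 (0.0684) or cuprizone BTKi 7 (0.0519), with a range of 0.00383 to 0.144. The medians of that list were 0.00 under BTKi and 0.02 with vehicle.

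Of 14 genes of SREBP control and sterol uptake, 4 fell in each comparison, while 2 rose under BTKi and 3 with vehicle. Of all genes, 1.77% were called lower and 6.11% higher under BTKi, and 4.82% and 10.2% with vehicle. Insig1, which holds SREBP in the endoplasmic reticulum and is itself an SREBP target, averaged 18.1 ± 1.36 FPKM in cuprizone BTKi and 25.5 ± 2.15 FPKM in naive BTKi (-0.48, limma adjusted p = 1.48e-05), and it fell by 0.43 with vehicle. Srebf2, which encodes SREBP-2, fell by 0.18 (adjusted p = 0.000122) and by 0.14 (adjusted p = 0.00101). Stard4, a cytosolic sterol carrier, fell by 0.40 under BTKi and averaged 3.97 FPKM in cuprizone vehicle against 4.96 FPKM in naive vehicle libraries. These genes fell together with the 7 enzymes, whereas Srebf1, named here after its value was seen, rose by 0.57 under BTKi (adjusted p = 0.000784) and 0.38 with vehicle (adjusted p = 0.0162), with no alternative settings run.

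Of 12 genes of sterol export, storage and oxidation, 5 rose and 1 fell under BTKi, and 5 rose and 2 fell with vehicle. The medians of that list were 0.17 under BTKi and 0.03 with vehicle. For it and the list after it, the shares of all genes were 6.11% higher and 1.77% lower under BTKi. With vehicle they were 10.2% higher and 4.82% lower. Abca1, the exporter that loads cholesterol onto lipoproteins, rose by 0.99 under BTKi and 0.91 with vehicle. Apoe, which encodes the main protein of brain lipoproteins, rose by 0.92 and 0.98. Npc1, which moves cholesterol out of lysosomes, fell by 0.25 under BTKi and by 0.36 with vehicle. Of 8 fatty acid genes driven by SREBP-1, 1 fell and 1 rose under BTKi and 3 fell with vehicle. Scd1, a stearoyl-CoA desaturase, fell by 0.28 and by 0.44, and Scd2 and Elovl6 fell by 0.24 and by 0.26 with vehicle. Fads2, a desaturase of polyunsaturated fatty acids, rose by 0.17 under BTKi, but that call ended in 9 of 35 alternatives (limma adjusted p from 0.0128 to 0.175), among them without naive BTKi 2 (0.0759), 3 (0.175) or 4 (0.0617) and without cuprizone BTKi 4 (0.0558), 7 (0.0549) or 8 (0.0592). No gene of these 6 lists was called for BTKi against vehicle in either state or for the difference. Of all genes, 0.177% were called for BTKi in cuprizone, 0.217% in naive tissue and 0.125% for the difference.

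**Figure D4:**
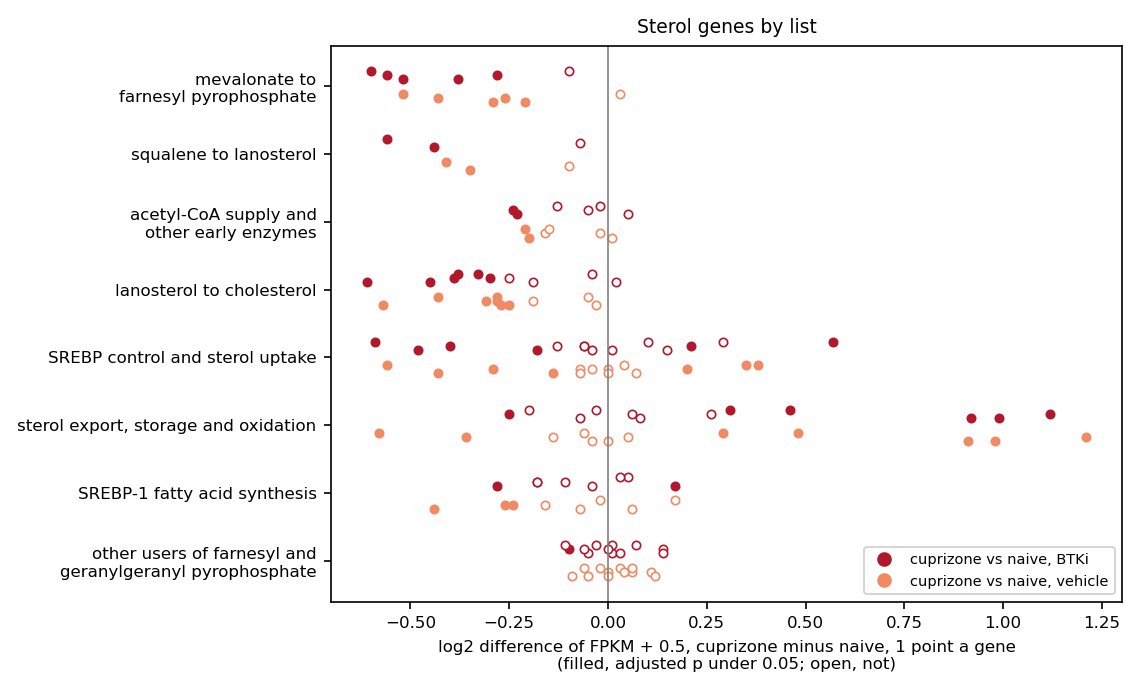
Log2 difference of FPKM + 0.5, cuprizone minus naive (x axis), 1 point a gene, by list (y axis), under BTKi (dark, upper) and with vehicle (light, lower). Filled points passed an adjusted p of 0.05. The enzymes to lanosterol and from lanosterol to cholesterol hold filled points to the left of 0 and none to the right, while 5 genes of export, storage and oxidation are filled to the right in each comparison.

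Cell type markers moved in the same comparisons. Of all genes, 1.77% were called lower and 6.11% higher under BTKi, and 4.82% and 10.2% with vehicle. All 12 markers of mature oligodendrocytes fell in both, with medians of -1.06 under BTKi and -1.54 with vehicle. Their summed level ran from 550 to 1201 FPKM in cuprizone BTKi, from 509 to 881 in cuprizone vehicle, from 1429 to 1486 in naive BTKi and from 1726 to 2463 in naive vehicle. Mog, on the myelin surface, averaged 17.6 ± 7.44 FPKM in cuprizone BTKi and 35.5 ± 0.804 FPKM in naive BTKi (-1.09, limma adjusted p = 0.00393), and its log2 difference was -1.68 with vehicle. Mobp had a log2 difference of -0.77 under BTKi and -1.30 with vehicle. In bulk tissue fewer cells of a type and less RNA per cell cannot be told apart, and the part of the oligodendrocyte markers in the falls of the enzymes was not tested. The myelin sums of naive BTKi all lay below those of naive vehicle, where 4.93% of all genes were lower without overlap. None of the 12 markers was called by limma there, and their median log2 difference was -0.32. The mean centred log2 level of the 9 enzymes ran from 0.20 to 0.28 in naive BTKi and from 0.16 to 0.26 in naive vehicle.

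**Figure D5:**
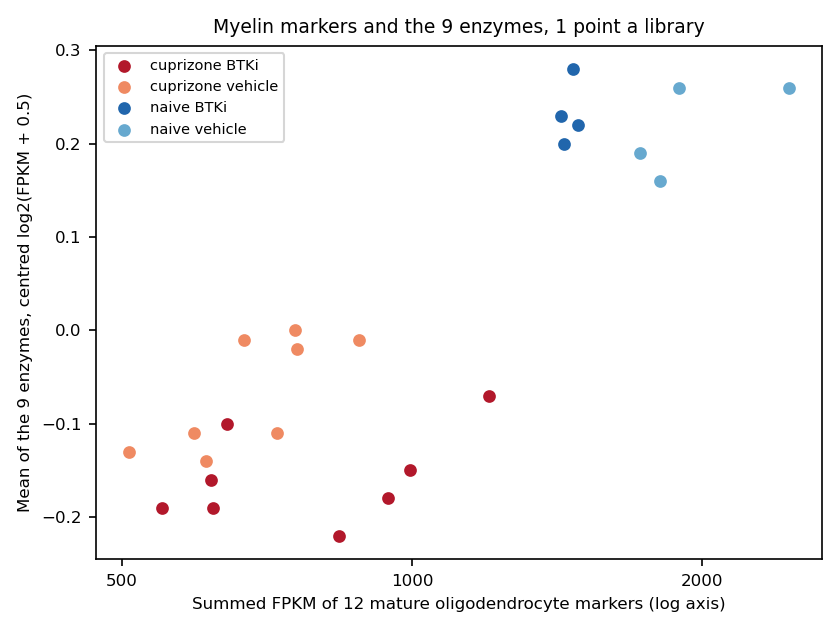
Mean centred log2(FPKM + 0.5) of the 9 enzymes (y axis) against the summed FPKM of 12 mature oligodendrocyte markers (x axis, log), 1 point a library, coloured by group. Cuprizone libraries lie at the lower left, at -0.22 to -0.07 under BTKi and at -0.14 to -0.00 with vehicle. Naive libraries lie at the upper right, at 0.20 to 0.28 in naive BTKi and at 0.16 to 0.26 in naive vehicle.

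Microglial markers rose in 6 of 8 in both comparisons and astrocyte markers in 4 of 7, with 1 astrocyte marker lower with vehicle. Over all genes 6.11% were higher and 1.77% lower under BTKi, and 10.2% and 4.82% with vehicle. These shares stand beside every marker count of this paragraph for cuprizone against naive tissue. The summed microglial level ran from 169 to 265 FPKM in cuprizone BTKi, from 148 to 339 in cuprizone vehicle, from 109 to 119 in naive BTKi and from 98.5 to 119 in naive vehicle. Astrocyte sums ran from 1046 to 1264 FPKM in cuprizone BTKi, from 1015 to 1164 in cuprizone vehicle, from 781 to 833 in naive BTKi and from 749 to 882 in naive vehicle. Of 6 precursor markers 1 rose under BTKi, and 1 rose and 1 fell with vehicle, and of 6 markers of newly formed oligodendrocytes 2 rose in each comparison and 1 fell with vehicle. Of these calls 5 of 5 with vehicle and 2 of 3 under BTKi ended when 1 library was left out (limma adjusted p 0.0523 to 0.201 and 0.05 to 0.086). With vehicle Cacng4, Emid1, Enpp6 and Rras2 were lost without naive vehicle 2, Emid1 also without naive vehicle 4, Rras2 also without cuprizone vehicle 2 or 5, and Fyn without naive vehicle 3 or 4 or cuprizone vehicle 2, 4 or 5. Under BTKi Vcan was lost without naive BTKi 1 or 3 and Gpr17 without naive BTKi 2 or 4, while Bcas1 was called in 35 of 35 alternatives. General neuron (7), choroid plexus (6), endothelial (5) and red blood cell (4) markers gave no call by limma in any comparison, though the choroid plexus sum ran from 30.5 to 1522 FPKM within cuprizone vehicle. The general neuron sum ran from 1832 to 2059 FPKM in cuprizone BTKi and from 1936 to 2192 FPKM in cuprizone vehicle. In naive BTKi it ran from 1909 to 2114 FPKM and in naive vehicle from 1818 to 2135 FPKM. The myelin sum reached 1201 FPKM in cuprizone and 2463 FPKM in naive libraries. The neuron and myelin sums add different genes, so their sizes do not give shares of RNA. The libraries hold neuronal RNA, and its part in the levels of the enzymes was not tested. All 8 striatal neuron markers, which mark tissue beside the tract, were lower with vehicle and none was called under BTKi. Their sum ran from 132 to 241 FPKM in cuprizone vehicle and from 237 to 687 FPKM in naive vehicle, where naive vehicle 2 was highest. No marker of any list was at 0 in every library, and the part of these markers in the enzymes' falls was not tested. Without the 3 cuprizone vehicle libraries lowest in choroid plexus markers, a choice made after the data were seen, 7 enzymes were called lower in both comparisons.

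Within groups the enzymes varied together to different degrees. After each group mean was subtracted, Pearson's r over the 24 libraries was 0.80 for Hmgcs1 and Sqle, 0.79 for Idi1 and Sqle and 0.71 for Hmgcs1 and Idi1, as a description of points that share library and depth. The median over all 36 pairs was 0.28 (-0.22 to 0.80), and over the 8 pairs with Lss it was -0.06. By the same measure the genes outside the pathway most like the mean of the 9 were Coil (0.81), Srd5a1 (0.76), Smarce1 (0.74), Arhgef28 (0.72), Mob2 (0.71), Brpf1 (0.70), Grpel1 (0.70) and Spopl (0.69). They were picked as the highest r among all genes with a mean of at least 1 FPKM. Such a choice among many genes gives high values by itself, and whether these exceed that was not tested. Of these 8, Brpf1 was higher with cuprizone under BTKi (0.14, limma adjusted p = 0.0317) and was not called with vehicle, and 6 were called in neither comparison. The shares of all genes called were 6.11% higher and 1.77% lower under BTKi, and 10.2% and 4.82% with vehicle. Srd5a1, a steroid reductase, fell with cuprizone, by 0.35 under BTKi (limma adjusted p = 0.00481) and by 0.47 with vehicle (adjusted p = 0.000118).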

How the data were processed

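Values are FPKM, made and deposited by the authors for each gene and library. Per the labels' protocols, RNA was extracted with a Qiagen RNeasy Micro kit and libraries made with a stranded TruSeq mRNA kit. The sources used here do not give aligner, counter, build or annotation. Of 54446 gene IDs, 54409 had a symbol, and 53229 matched GENCODE M21 (GRCm38) by ID and version. Total FPKM ran from 462521 to 496350 per library. The spacing of low values implied between 2.65e+07 and 3.1e+07 fragments per library (88.4% of 97877 low values lay within 0.1 of a whole fragment, against 20% by chance).

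Genes with a mean of at least 0.5 FPKM over the 24 libraries (15216) entered the test on log2(FPKM + 0.5), where changes of low genes come out too small. The tool was limma 3.58.1 under R 4.3.3, using eBayes with a trend after lmFit and contrasts.fit. All 4 groups entered 1 model without covariates, and p-values were adjusted by Benjamini-Hochberg over all genes of a comparison at 0.05. The fit was also run on simulated data in which each gene varied independently, so that run does not cover variation that genes of a library share. Alternatives were other pseudocounts, filters and scalings, eBayes without a trend, only the groups compared, a replicate block, exact permutation tests and leaving out each library. FPKM are not counts, so no count test was run.

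The enzymes, lists and tests were chosen with earlier results of these data known. All 9 enzymes are named. From each other list at most 3 called genes a comparison, those with the smallest p, are named, besides Srebf2, Insig1, Mog and Mobp, and the 8 genes most like the enzymes, with a mean of at least 1 FPKM. Of the genes this rule gives from marker lists, only those of the oligodendrocyte lineage are printed, and not each of them. Some genes that the lists or this rule give are not reported here. Software for tables and plots was pandas 2.3.3, numpy 2.4.6 and matplotlib 3.10.9 (Python 3.11.15).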

Additional observations from a re-analysis of the deposited data

Results flagged for a closer look

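Single libraries stood apart from their group in 3 of the 36 sets of 4 or 8 libraries that the 9 enzymes give, where chance gives about 1 in 20. Idi1 was highest in naive vehicle 1, at 20.1 FPKM against 18.4 to 18.6 FPKM in the other naive vehicle libraries. Fdft1 was lowest in naive BTKi 2, at 28.9 FPKM, against 30.6 to 30.8 FPKM in the rest of that group. Sqle was highest in cuprizone vehicle 6, at 16.5 FPKM, and this library was also the highest of its group for Hmgcs1 (61 FPKM) and Idi1 (15.2 FPKM). In all 3 cases the calls of that enzyme for cuprizone against naive tissue held without the library.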

How the results depend on the processing

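Of 1566 fits of the 9 enzymes under alternative settings, 1539 kept their direction and their side of the threshold, 12 lost a call, none gained one and 15 turned direction, none of these a called value. The exact permutation tests, which are unadjusted and given below, are not among these fits. For Hmgcs1, Idi1, Fdps, Fdft1 and Sqle the largest adjusted p in 350 such fits of cuprizone against naive tissue was 0.00215. Mvd with vehicle was not called without the filter on low values (limma adjusted p = 0.0619) or with only the groups compared (0.0995), within a range of 0.0099 to 0.143. Deviations of same-numbered libraries of different groups correlated with a median r of 0 over 28 pairs (-0.27 to 0.32), with 8 over 0.1. Differently numbered libraries gave a median r of 0 over 180 pairs (-0.28 to 0.27), with 25 over 0.1. These values do not settle whether the labels' replicate numbers pair the libraries. With the replicate block 6 enzymes were called lower under BTKi and 6 with vehicle, Mvk being lost in each (0.0817 and 0.0677), and the difference of the BTKi effects had 9 calls over all genes in place of 19.

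Counts over all genes moved elsewhere. BTKi in cuprizone tissue gave 27 calls, against 16 without the filter and 11 without the libraries low in choroid plexus markers (chosen after the data were seen, as is each such value). BTKi in naive tissue gave 33, against 21 without the filter, 18 on the TPM scale, 19 without those libraries and 3 with only the groups compared. The difference gave 7 without those libraries. Leaving out 1 library gave 1825 to 2392 calls for cuprizone with vehicle, 860 to 1294 under BTKi, 14 to 34 for BTKi in cuprizone, 7 to 41 in naive tissue and 8 to 23 for the difference. The low counts came without cuprizone BTKi 1 (17), 3 (16), 7 (16) or 8 (16) or cuprizone vehicle 2 (14) or 4 (17) for BTKi in cuprizone, without naive BTKi 1 (21), 3 (8) or 4 (7) or naive vehicle 2 (11) in naive tissue, and without naive BTKi 3 (11) or 4 (8) or naive vehicle 2 (11) or 4 (12) for the difference.

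Turned estimates were all near 0: Idi1 for BTKi in naive tissue was 0.01 after median ratio scaling and quantile normalization, and without the libraries low in choroid plexus markers Fdft1 for BTKi in cuprizone was 0.00 and Mvk for the difference 0.04. Leaving out 1 library gave -0.01 to 0.09 for Pmvk with vehicle, -0.01 to 0.03 for Idi1 in naive tissue, and for the difference -0.06 to 0.05 for Mvk and -0.00 to 0.05 for Lss. Exact two-sided permutation tests, unadjusted, gave p = 0.0121 for Pmvk under BTKi, 0.00746, 0.0152 and 0.0186 for Fdps, Sqle and Lss for BTKi in cuprizone, and 0.0286, the smallest that 70 splits allow, for Lss in naive tissue. The causes were not tested, and the difference could not be fitted with only the groups compared. The number of libraries limits BTKi against vehicle, where 95% intervals of the 9 enzymes in naive tissue reached from -0.33 to 0.27.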
